A study of Mus musculus with 28 samples.

Results

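Myocardial infarction (MI) in mouse pups operated at postnatal day 7, an age at which the heart no longer regenerates, was compared with sham surgery at the same age by RNA sequencing of the ventricle 3 days later. The 2 groups, 7d-MI + 3 and 7d-SHAM + 3, were taken from the labels and hold 4 libraries each, 8 of the 28 libraries of the study. All animals were male Hsd:ICR(CD-1) pups, 10 days old when the hearts were collected, and pups stayed with their own litter and mother. In 7d-MI + 3 the left anterior descending coronary artery was ligated, and in 7d-SHAM + 3 the operation was done without the ligation. The tissue came from the left ventricular wall away from the infarct (the remote zone), so the ischemic area itself was not measured. Each library is total RNA from 1 mouse. The study also holds 1d-MI + 3 and 1d-SHAM + 3, operated at day 1 and also followed for 3 days (4 libraries each), which are used here only to set the response at day 7 beside the response at the regenerating age.

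In the first weeks after birth the mouse heart turns from glucose to fatty acids as its main fuel, its mitochondria multiply, and most cardiomyocytes leave the cell cycle. Dead muscle is cleared by neutrophils and by macrophages derived from blood monocytes, and fibroblasts that take on contractile features, called myofibroblasts, lay down collagen in its place. Muscle that survives carries more load, and loaded cardiomyocytes return to natriuretic peptides and to actin and myosin isoforms of the fetal heart. In bulk tissue fewer cells of a type and less RNA per cell cannot be told apart, so every level given here is relative to the RNA of the whole wall.

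The 8 libraries held 39971405 to 51942648 counts, and 20345 genes had enough counts to be tested. Transcripts of the mitochondrial genome took 54.85 to 60.99% of the counts in 7d-SHAM + 3 and 40.35 to 43.29% in 7d-MI + 3, and 19446 to 20239 against 21183 to 22316 genes had at least 1 count. The 4 sham animals share 1 animal name prefix and the 4 MI animals carry 3 others, so the operation and the prefix cannot be told apart. What a prefix marks, a litter, a batch or something else, is not given. P-values set each difference against the spread between animals within the 4 groups of the 3-day follow-up, those operated at day 1 included. MI replicate 3 stood apart from the other MI libraries. Its genes differed from the mean of its group by a median of 0.182 on the log2 scale, against 0.12 to 0.151 for the others. The summed level of 8 ventricular cardiomyocyte markers was 66030 CPM (counts scaled to library sizes adjusted by edgeR's TMM factors) in this library, 30430 to 33220 CPM in the other MI libraries and 51350 to 55780 CPM in the shams. The same library held the lowest summed level of recruited macrophage markers among the MI libraries (408 against 703 to 1724 CPM) and lung epithelial transcripts at 10.5 CPM, which did not exceed 0.309 CPM elsewhere. All defining markers of ventricular cardiomyocytes were present in all 8 libraries.

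Of 20345 genes 6910 (34.0%) differed in remote ventricle between 7d-MI + 3 and 7d-SHAM + 3 at an adjusted p under 0.05, and 4024 of them (19.8% of those tested) were higher and 2886 (14.2%) lower in 7d-MI + 3. This split depends on scaling: with the upper quartile 3516 genes were higher and 3517 lower, and with DESeq2's size factors 3804 and 3171. All adjusted p-values come from the quasi-likelihood test of edgeR, with Benjamini-Hochberg correction across every gene tested. Log2 fold changes are 7d-MI + 3 over 7d-SHAM + 3 with their SE, and levels are TMM-scaled CPM. The larger changes leaned upward: 2326 genes at least doubled and 1030 at least halved, 988 rose and 217 fell by 4-fold or more, and 300 rose and 34 fell by 16-fold or more. Over all genes tested the median log2 fold change was 0.082, and 37.4% of genes had groups whose libraries did not overlap. Of 16103 protein-coding genes 38.2% were called, against 15.9% of 655 long intergenic RNAs and 20.4% of 1063 antisense RNAs. Without MI replicate 3 the count was 6275 of 22092 genes, with 3620 higher and 2655 lower. When animals of 1 name prefix were treated as correlated, with limma-voom, the count was 4492, of which 2497 were higher and 1995 lower.

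**Figure D1:**
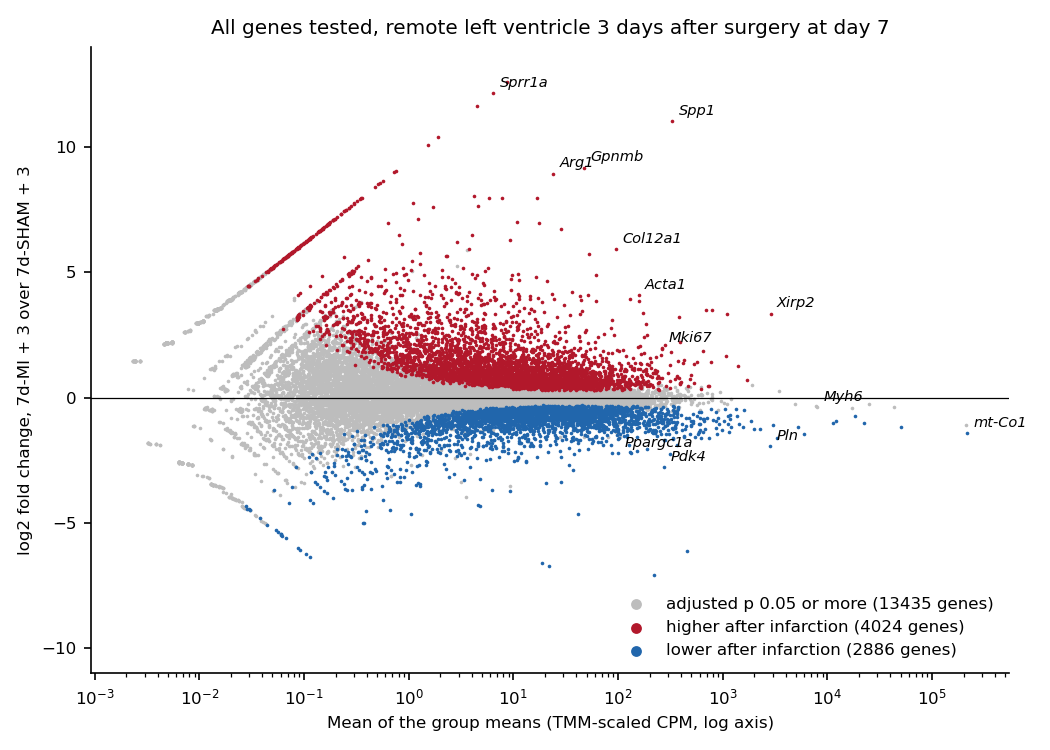
Log2 fold change of 7d-MI + 3 over 7d-SHAM + 3 (y axis) against the mean of the group means in TMM-scaled CPM (x axis, log scale), 1 point per gene. The 4024 higher genes (red) reach far above the 2886 lower genes (blue) in size of change.

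Genes of recruited macrophages were among the largest rises of all genes with a mean of at least 5 CPM. *Spp1* (ENSMUSG00000029304, chromosome 5, 104435118 to 104441050), which encodes the secreted matrix protein osteopontin, measured 0.136, 0.867, 0.154 and 0.109 CPM in the 4 sham libraries and 1301, 614, 221 and 496 CPM in the 4 MI libraries. *Gpnmb*, a glycoprotein of phagocytes that digest debris, measured 0.136, 0.309, 0.102 and 0.109 CPM in shams and 174, 86.4, 64.5 and 54.95 CPM after MI. *Arg1*, the arginine-degrading enzyme of reparative macrophages, measured 0.0680, 0.155, 0.154 and 0 CPM against 56.9, 64.96, 29.4 and 41.1 CPM. All 3 were close to absent from sham hearts and present in each MI heart, lowest in MI replicate 3 for *Spp1* and *Arg1* and in replicate 4 for *Gpnmb*. Their log2 fold changes were 11.05 (adjusted p = 5.47e-05, SE 1.38), 9.18 (adjusted p = 1.05e-05, SE 0.95) and 8.95 (adjusted p = 6.01e-06, SE 0.89). *Mmp12*, the elastase of macrophages, showed a log2 fold change of 7.98 (adjusted p = 2.24e-05, SE 0.92), *Lgals3*, the lectin galectin-3, 6.75 (adjusted p = 8.12e-05, SE 0.90), and *Atp6v0d2*, a proton pump subunit of macrophages and osteoclasts, 7.98 (adjusted p = 0.000497, SE 1.35). *Adam8*, a leukocyte metalloprotease, showed a log2 fold change of 7.03 (adjusted p = 2.93e-06, SE 0.71) and *Il1rn*, the natural antagonist of the interleukin-1 receptor, 6.98 (adjusted p = 0.000691, SE 1.21). *Il1rn* was uneven among MI hearts, at 84.97, 34.8, 7.35 and 13.4 CPM. With animals of 1 name prefix treated as correlated *Spp1*, *Gpnmb*, *Mmp12*, *Atp6v0d2* and *Il1rn* did not pass, at adjusted p from 0.0889 to 0.238.

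General macrophage markers rose together, as did nearly all markers of recruited cells, while most markers of resident cells did not pass. Of 11 general macrophage markers 11 rose, and the median log2 fold change was 2.02. *Cd68*, a lysosomal glycoprotein of macrophages, measured 2.58, 1.3, 3.58 and 2.36 CPM in shams and 32.7, 26.7, 18.9 and 24.3 CPM after MI (log2 fold change 3.38, adjusted p = 1.07e-05, SE 0.41). *Lyz2*, the lysozyme of myeloid cells, showed a log2 fold change of 2.55 (adjusted p = 3.59e-05, SE 0.35) and *Adgre1*, which encodes the F4/80 antigen, 2.02 (adjusted p = 0.000178, SE 0.34). Of 11 markers of recruited monocytes and macrophages 10 rose (5 with animals of 1 name prefix treated as correlated), at a median of 4.84, and their sum went from 13.9 to 21.1 CPM in shams to 408 to 1724 CPM after MI. *Trem2*, a lipid receptor of such cells, showed a log2 fold change of 4.14 (adjusted p = 9.77e-08, SE 0.36). Of 7 markers of resident cardiac macrophages 2 rose, *Mrc1* (the mannose receptor CD206) by a log2 fold change of 1.304 (adjusted p = 1.01e-05, SE 0.18) and *F13a1* (a coagulation factor subunit) by 1.36 (adjusted p = 0.00237, SE 0.31), and the median of the list was -0.08. Without MI replicate 3 2 rose and 1 fell, with a median of -0.56. The summed level of the 7 resident markers did rise, from 77.0 to 111 CPM in shams to 171 to 233 CPM after MI. Lysosomal genes rose in 17 of 25 measured members and fell in 0, with a median of 0.80.

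Neutrophil genes were higher than in shams 3 days after the ligation. Of 10 measured markers 9 rose, with a median of 3.49, and their sum was 2.72 to 5.10 CPM in shams and 39.6 to 82.9 CPM after MI. *S100a8*, a subunit of the calcium-binding alarmin calprotectin, measured 2.65, 1.55, 1.95 and 1.9 CPM in shams and 22.6, 34.3, 40.5 and 31.02 CPM after MI (log2 fold change 3.999, adjusted p = 9.38e-10, SE 0.22). Its partner *S100a9* showed a log2 fold change of 3.34 (adjusted p = 2.13e-05, SE 0.45), and *Mmp8*, the collagenase of neutrophil granules, 5.65 (adjusted p = 2.21e-07, SE 0.53). MI replicate 3, the lowest MI library in recruited macrophage markers, was the highest in *S100a8* and in *S100a9*. B cell markers rose in 3 of 5, in 1 of 5 without MI replicate 3 and in 0 with the name prefix as a correlated block.

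Cytokines, chemokines and their receptors rose as well. In the list of inflammation and acute phase 30 of 43 measured genes rose and 1 fell, at a median of 2.11, where 19.8% of all genes rose and 14.2% fell. *Il6*, a cytokine of acute inflammation, had no count in any sham library and measured 2.54, 4.54, 2.33 and 2.84 CPM after MI, at least 141-fold above the level of 3 counts over the 4 shams. *Saa3*, an acute-phase apolipoprotein, measured 0, 0, 0 and 0.109 CPM in shams and 2.599, 4.74, 20.1 and 5.94 CPM after MI (log2 fold change 8.04, adjusted p = 1.16e-05, SE 0.98), and 7.14 (adjusted p = 4.93e-06) without its highest library, MI replicate 3. Among 21 measured chemokine ligands 15 rose and 0 fell. *Ccl2*, the chief attractant of monocytes, measured 0.612, 0.867, 1.13 and 0.760 CPM in shams and 22.9, 27.4, 11.8 and 25.4 CPM after MI (log2 fold change 4.68, adjusted p = 2.81e-06, SE 0.49), and *Ccl7* and *Ccl6*, chemokines of the same class, had 4.57 (adjusted p = 7.73e-07, SE 0.47) and 4.06 (adjusted p = 2.08e-05, SE 0.51). *Il1r1*, the signaling receptor of interleukin-1, measured 9.92, 7.55, 8.91 and 7.19 CPM in shams and 41.2, 45.6, 33.5 and 41.8 CPM after MI (log2 fold change 2.27, adjusted p = 1.30e-08, SE 0.16). *Hal*, histidine ammonia-lyase (ENSMUSG00000020017, chromosome 10, 93488768 to 93519304), had 8 counts over the 4 shams and measured 23.1, 13.4, 9.403 and 15.5 CPM after MI (log2 fold change 7.97, adjusted p = 6.01e-05, SE 1.07). *Hal* was counted in the inflammation list and not in the list of histidine breakdown and histamine. Of the genes in that second list 4 had a count in these libraries, and 0 of them rose and 1, the histamine-inactivating *Hnmt*, fell. *Steap4*, a metal reductase and the 1 gene of the inflammation list that fell, showed a log2 fold change of -1.37 (adjusted p = 7.39e-06, SE 0.18).

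*Osmr* (ENSMUSG00000022146, chromosome 15, 6813577 to 6874969), the receptor of oncostatin M, a cytokine of macrophages and neutrophils that acts on cardiomyocytes and fibroblasts, rose evenly. It measured 8.02, 8.02, 7.79 and 7.41 CPM in shams and 49.8, 63.9, 47.7 and 58.6 CPM after MI (log2 fold change 2.82, adjusted p = 1.05e-08, SE 0.20), and each sham lay within 1 CPM of the others. Its promoter window is shown because it holds the letters TGANTCA, the recognition motif of AP-1 (Fos and Jun) factors. The window runs from 250 bases before to 50 after the RefSeq start in GRCm38.p6, chr15:6874264-6874563 on the minus strand, and capitals mark the match.
Osmr: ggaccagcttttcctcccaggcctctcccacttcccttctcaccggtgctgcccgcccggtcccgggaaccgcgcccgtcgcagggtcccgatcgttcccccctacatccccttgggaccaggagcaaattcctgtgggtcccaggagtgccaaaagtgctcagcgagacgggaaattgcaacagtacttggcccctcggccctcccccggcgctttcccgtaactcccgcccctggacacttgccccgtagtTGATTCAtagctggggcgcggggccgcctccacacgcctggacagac
On either strand TGANTCA was found in such windows of 10 of 38 genes of the inflammation list (26.3%, *Hal* included) and in 8.97% of the 27025 genes with a window. A match describes the letters of the window only.

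Receptors of complement fragments and subunits of the phagocyte oxidase also rose. *C3ar1*, the receptor of the C3a fragment, measured 4.55, 3.405, 3.69 and 3.15 CPM in shams and 79.96, 74.2, 55.5 and 67.3 CPM after MI (log2 fold change 4.23, adjusted p = 3.08e-08, SE 0.30), and *C5ar1*, that of C5a, had 3.72 (adjusted p = 3.14e-07, SE 0.36). *Clu*, which encodes clusterin, an extracellular chaperone that holds back the membrane attack complex, showed a log2 fold change of 3.38 (adjusted p = 3.08e-08, SE 0.25), while *Cd59a*, a membrane inhibitor of the same complex, fell with -1.28 (adjusted p = 3.12e-06, SE 0.15). Of the list, 12 of 21 complement genes rose and 1 fell. Of 9 measured NADPH oxidase genes 6 rose, among them the phagocyte subunits *Ncf4* at 3.25 (SE 0.33), *Ncf1* at 2.66 (SE 0.31) and the GTPase *Rac2* at 2.26 (SE 0.30). MHC class II genes rose in 3 of 9, with *Cd74*, the invariant chain, at a log2 fold change of 2.22 (adjusted p = 0.00525, SE 0.56), *H2-Aa* at 1.98 (adjusted p = 0.00116, SE 0.43) and *H2-Ab1* at 1.88 (adjusted p = 0.000304, SE 0.35). Interferon-stimulated genes rose in 3 of 26 (11.5%), where 19.8% of all genes rose, and in 1 with the prefix block. Their summed level was 957, 142, 433 and 146 CPM in sham replicates 1 to 4 and 195 to 505 CPM after MI. Each library was left out in turn, but no fit left out the 2 high shams together, so their joint part in this count was not tested. *Ifi204*, a DNA sensor and the member of smallest p, showed a log2 fold change of 2.42 (adjusted p = 0.00449, SE 0.57).

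Fibrillar matrix rose broadly. *Col1a1* (ENSMUSG00000001506, chromosome 11, 94936224 to 94953042), the main chain of scar collagen, measured 62.4, 69.96, 85.9 and 73.8 CPM in shams and 532, 709, 761 and 747 CPM after MI (log2 fold change 3.23, adjusted p = 6.14e-09, SE 0.21). *Col12a1* (ENSMUSG00000032332, chromosome 9, 79598991 to 79718831), a collagen that lies on the surface of fibrils, measured 2.45, 2.26, 3.84 and 3.83 CPM in shams and 184, 219, 164 and 189.7 CPM after MI (log2 fold change 5.92, adjusted p = 1.14e-07, SE 0.42). *Col3a1*, already high in the shams at 1293, 1329, 1365 and 1258 CPM, reached 1919, 2055, 2460 and 2053 CPM (log2 fold change 0.69, adjusted p = 0.00183, SE 0.16). The libraries of the 2 groups did not overlap for any of the 3. Of 25 collagen chains 19 rose, with a median of 1.11, and *Col16a1* showed a log2 fold change of 1.91 (adjusted p = 5.58e-07, SE 0.20). The 1 chain that fell was *Col4a5*, a basement membrane collagen, with a log2 fold change of -0.61 (adjusted p = 0.00248, SE 0.14).

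Genes of matricellular proteins, which signal to cells rather than bear load, included large changes. The cells that made these transcripts cannot be read from bulk tissue. *Tnc* (ENSMUSG00000028364, chromosome 4, 63959785 to 64047015), tenascin-C of the wound edge, measured 9.31, 17.5, 20.1 and 16.2 CPM in shams and 221, 230.3, 257 and 265 CPM after MI (log2 fold change 3.94, adjusted p = 7.00e-08, SE 0.30). *Fn1*, fibronectin, rose by a log2 fold change of 3.34 (adjusted p = 6.14e-09, SE 0.22), *Cthrc1*, a marker of activated fibroblasts, by 3.77 (adjusted p = 3.25e-08, SE 0.29), and *Bgn*, the proteoglycan biglycan, by 2.94 (adjusted p = 1.05e-08, SE 0.21). *Postn*, periostin, was high in the shams (771, 888, 884 and 761 CPM) and rose to 1908, 1735, 1963 and 2268 CPM (log2 fold change 1.25, adjusted p = 6.61e-05, SE 0.20). *Cemip*, which takes part in the breakdown of hyaluronan, measured 0.0680, 0.0619, 0.154 and 0.597 CPM in shams and 16.2, 14.3, 16.6 and 25.8 CPM after MI (log2 fold change 6.298, adjusted p = 8.87e-07, SE 0.59). Of 37 genes 25 rose and 4 fell. *Dcn*, which encodes decorin, a proteoglycan that binds collagen and TGF-beta, went against the list, from 1201, 1213, 1180 and 1008 CPM to 675, 664, 758 and 517 CPM (log2 fold change -0.82, adjusted p = 0.000446, SE 0.16).

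Enzymes that modify and crosslink collagen rose in 18 of 22 and fell in 1. *Lox*, lysyl oxidase, measured 20.2, 19.2, 21.5 and 20.2 CPM in shams and 237, 326, 275 and 347 CPM after MI (log2 fold change 3.87, adjusted p = 2.00e-08, SE 0.27). The shams were nearly equal and every MI library lay more than 10-fold above them. *Loxl2*, a related oxidase, showed a log2 fold change of 1.79 (adjusted p = 9.35e-07, SE 0.19) and *Plod3*, a lysyl hydroxylase, 1.69 (adjusted p = 6.57e-07, SE 0.18). Matrix proteases and their inhibitors rose in 17 of 26, with *Plau*, the urokinase, at a log2 fold change of 2.69 (adjusted p = 1.14e-07, SE 0.24). The tissue inhibitors of metalloproteinases moved in opposite directions: *Timp1* rose from 3.54, 7.49, 5.68 and 5.998 to 114, 123, 52.7 and 98.3 CPM (log2 fold change 4.09, adjusted p = 1.99e-06, SE 0.40), and *Timp4*, the isoform of heart muscle, fell from 2.65, 3.31, 1.51 and 1.95 to 0.130, 0.309, 0.196 and 0.173 CPM (log2 fold change -3.52, adjusted p = 0.000113, SE 0.60).

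Genes of TGF-beta and BMP signaling, which drive and restrain fibrosis, rose in 20 of 30 and fell in 1 (18 and 2 without MI replicate 3). *Tgfb2* measured 18.5, 20.6, 21.3 and 21.7 CPM in shams and 84.6, 120.2, 108 and 124 CPM after MI (log2 fold change 2.41, adjusted p = 1.67e-07, SE 0.22), and the receptor *Tgfbr2* had 1.03 (adjusted p = 3.43e-06, SE 0.13). *Ltbp2*, a matrix protein related to the latent TGF-beta binding proteins, rose from 1.495, 1.92, 1.38 and 1.57 to 36.2, 45.7, 37.98 and 43.1 CPM (log2 fold change 4.68, adjusted p = 2.79e-07, SE 0.39), while *Ltbp1*, which stores latent TGF-beta, fell with -0.96 (adjusted p = 5.41e-05, SE 0.15). Of 26 myofibroblast and cytoskeletal genes 23 rose and 0 fell, with a median of 1.42. *Actb*, cytoplasmic actin, measured 448, 519, 527 and 543 CPM in shams and 1631, 1763, 1515 and 1568 CPM after MI (log2 fold change 1.67, adjusted p = 6.87e-07, SE 0.18), *Vim*, vimentin, had 1.48 (adjusted p = 4.44e-07, SE 0.15) and *Anxa1*, annexin A1, 1.596 (adjusted p = 2.89e-06, SE 0.19). Fibroblast markers did not move as 1 group: 5 of 11 rose (3 with the prefix block), *Col1a1* among them, and 6 fell, *Dcn* among them.

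**Figure D2:**
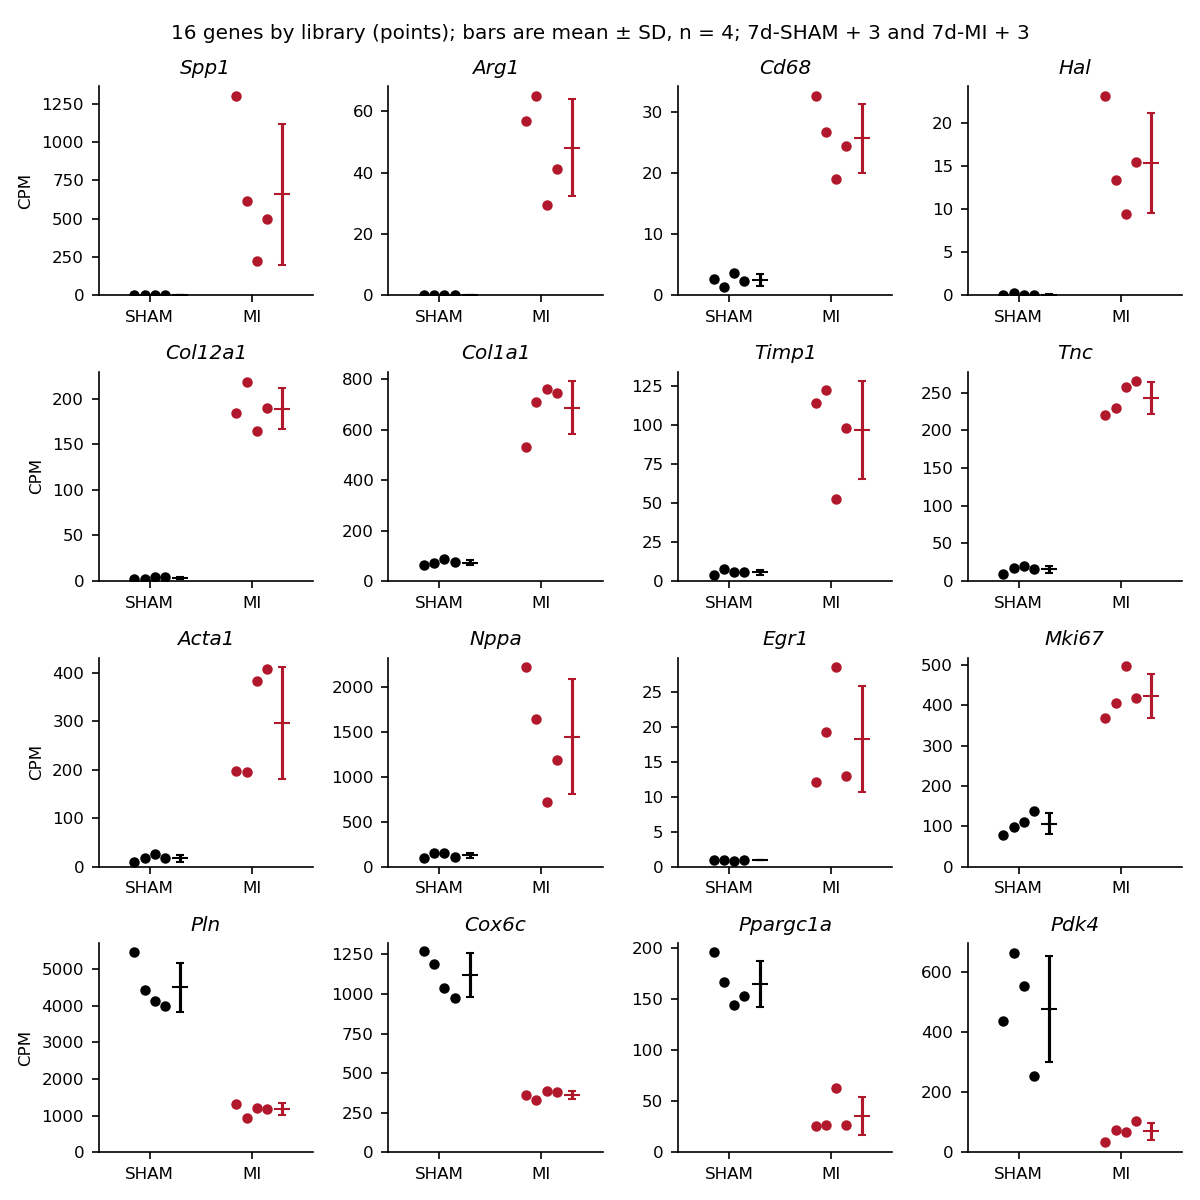
TMM-scaled CPM (y axis, from 0) of 16 genes in the 4 libraries of 7d-SHAM + 3 (black) and of 7d-MI + 3 (red), 1 point per library in the order of replicates 1 to 4, with the mean and SD beside them (n = 4). In all 16 panels the 2 groups do not overlap, and the MI libraries of *Spp1*, *Acta1* and *Nppa* spread more widely than those of *Col12a1* and *Cox6c*.

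Genes of load and injury in cardiomyocytes changed unevenly. *Sprr1a* (ENSMUSG00000050359, chromosome 3, 92483952 to 92485895), a small proline-rich protein that stressed muscle and nerve cells express, had no count in any sham library and measured 15.7, 16.3, 10.03 and 9.28 CPM after MI, at least 595-fold above the level of 3 counts over the 4 shams (adjusted p = 5.77e-09). *Xirp2* (ENSMUSG00000027022, chromosome 2, 67446002 to 67526614), an actin-binding protein of the cell junctions of cardiomyocytes, measured 396, 607, 509 and 525 CPM in shams and 4258, 6431, 4672 and 5537 CPM after MI (log2 fold change 3.36, adjusted p = 3.24e-07, SE 0.31). *Nppa* (ENSMUSG00000041616, chromosome 4, 148000722 to 148002079), which encodes atrial natriuretic peptide, measured 97.1, 155, 149.8 and 108 CPM in shams and 2228, 1648, 726 and 1193 CPM after MI (log2 fold change 3.505, adjusted p = 0.000317, SE 0.57), and the skeletal actin *Acta1* 8.84, 17.4, 25.4 and 17.3 CPM against 198, 195, 384 and 409 CPM (log2 fold change 4.103, adjusted p = 0.000196, SE 0.61). For each of these 4 genes every MI library lay above every sham. The related peptide *Nppb*, in contrast, overlapped between groups, at 113, 235, 169 and 113 CPM and 179.9, 322, 128 and 289.6 CPM (log2 fold change 0.55, adjusted p = 0.421, SE 0.47). *Ankrd1*, a titin-associated stress protein, did not pass either (log2 fold change 0.49, adjusted p = 0.286, SE 0.33).

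Neither cardiac myosin heavy chain passed the test. *Myh7*, the fetal chain, measured 278, 242, 280.2 and 223 CPM in shams and 294, 278, 283 and 412 CPM after MI (log2 fold change 0.31, adjusted p = 0.349, SE 0.24). *Myh6*, the adult chain, measured 8612, 8955, 8655 and 9948 CPM in shams and 6021, 4663, 11890 and 5134 CPM after MI (log2 fold change -0.38, adjusted p = 0.240, SE 0.24). MI replicate 3 was above all shams for *Myh6* and the other 3 MI libraries were below them, and without replicate 3 *Myh6* was lower with a log2 fold change of -0.77 (adjusted p = 0.00320). In the list of wall stress and fetal re-expression 8 of 20 rose and 2 fell. Members of 1 family went opposite ways there: *Fhl1*, a LIM domain protein of stretched sarcomeres, rose by a log2 fold change of 2.02 (adjusted p = 3.41e-06, SE 0.24), and *Fhl2*, which restrains hypertrophic signaling, fell with -1.27 (adjusted p = 3.79e-05, SE 0.19). *Tnni1*, the fetal slow skeletal troponin I, fell from 99.7, 81.1, 104 and 80.4 to 26.03, 33.7, 22.7 and 39.96 CPM (log2 fold change -1.58, adjusted p = 0.000190, SE 0.27). Reads of *Nppa*, *Myh7* and *Acta1* may include those of genes that overlap them at 10% or more of their level, since the strand setting of the counting is not given, and *Nppa* overlaps an antisense gene of 691 CPM on average.

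Contractile and calcium-handling genes of the working ventricle fell. Of 18 adult sarcomere genes 0 rose and 10 fell, and without MI replicate 3 11 fell. *Myl2*, the ventricular regulatory light chain, went from 6636, 7636, 7326 and 7324 CPM to 3296, 2848, 3412 and 3384 CPM (log2 fold change -1.16, adjusted p = 1.65e-05, SE 0.16). *Tnni3*, cardiac troponin I, fell with a log2 fold change of -1.26 (adjusted p = 2.01e-05, SE 0.18) and *Lmod2*, which sets the length of thin filaments, with -1.51 (adjusted p = 1.88e-06, SE 0.17). *Pln* (ENSMUSG00000038583, chromosome 10, 53337667 to 53345987), phospholamban, the brake of the calcium pump of the sarcoplasmic reticulum, measured 5478, 4424, 4127 and 4005 CPM in shams and 1333, 945, 1218 and 1192 CPM after MI (log2 fold change -1.94, adjusted p = 3.01e-07, SE 0.19). The pump itself, *Atp2a2*, fell with a log2 fold change of -1.23 (adjusted p = 0.000442, SE 0.24), and with -1.58 (adjusted p = 3.58e-06) without MI replicate 3, which at 2252 CPM was the highest MI library. *Trdn* and *Casq2*, triadin and calsequestrin of the calcium store, fell with a log2 fold change of -1.597 (adjusted p = 1.77e-06, SE 0.18) and -0.93 (adjusted p = 4.85e-05, SE 0.15). The release channel *Ryr2* measured 1608, 1291, 1341 and 1398 CPM in shams and 617, 607, 1648 and 575 CPM after MI (log2 fold change -0.71, adjusted p = 0.0444, SE 0.26). Its call rests on which library is left out: without MI replicate 3 it fell with a log2 fold change of -1.23 (adjusted p = 7.69e-06), and it did not pass without any 1 of the other 7 libraries. Altogether 11 of 16 calcium genes fell and 0 rose. The 8 ventricular cardiomyocyte markers, several of them in these lists, fell in 5 of 8, and in 7 of 8 without MI replicate 3. Marker sums of macrophages and neutrophils rose in the same MI libraries, and their part in the lower levels of muscle and mitochondrial genes was not tested.

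Ion channels fell in 15 of 27 genes and rose in 1. *Kcne1*, a subunit of the slow delayed rectifier, measured 118, 117, 106 and 122 CPM in shams and 50.5, 34.6, 39.02 and 40.3 CPM after MI (log2 fold change -1.49, adjusted p = 4.22e-07, SE 0.15). *Kcna5*, of the ultrarapid rectifier, fell with a log2 fold change of -1.71 (adjusted p = 3.91e-06, SE 0.21) and *Kcnj5*, of the acetylcholine-gated channel, with -1.58 (adjusted p = 5.17e-06, SE 0.20). The 1 member that rose was *Gja5*, connexin 40 of the conduction system, by a log2 fold change of 1.12 (adjusted p = 0.00369, SE 0.28). At the intercalated disc, the end-to-end junction of cardiomyocytes, the desmosomal cadherins *Dsg2* and *Dsc2* fell with a log2 fold change of -1.57 (adjusted p = 1.40e-07, SE 0.14) and -1.07 (adjusted p = 0.000466, SE 0.21) and N-cadherin (*Cdh2*) with -0.80 (adjusted p = 6.89e-05, SE 0.13), while *Vcl*, vinculin, rose by 0.79 (adjusted p = 0.00131, SE 0.17). Among 20 cardiac transcription factors 7 fell and 3 rose, 8 and 1 without MI replicate 3. *Hopx* fell with a log2 fold change of -1.796 (adjusted p = 4.18e-07, SE 0.18), *Gata6* with -0.95 (adjusted p = 3.47e-05, SE 0.14) and *Hand2* with -1.005 (adjusted p = 6.92e-05, SE 0.16). The values of *Gja5*, *Vcl*, *Hopx*, *Hand2* and *Atp2a2* carry the same limit of overlapping genes.

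The respiratory chain fell almost as a whole. Of 78 nuclear genes of its 5 complexes and cytochrome c 75 fell and 0 rose, with a median of -1.04, where 14.2% of all genes fell. All 36 subunits of complex I, the NADH dehydrogenase, fell, as did all 4 of complex II and all 9 of complex III. Of 13 genes of complex IV, cytochrome c oxidase, 11 fell, with the lowest median of the complexes (-1.38), and *Cox6a1* and *Cox8a* did not pass. Of 15 genes of complex V, the ATP synthase, 14 fell, and *Atp5d* did not pass. *Ndufa1* of complex I (ENSMUSG00000016427, chromosome X, 37187588 to 37191163) measured 304, 348, 290.2 and 276 CPM in shams and 86.4, 61.6, 65.6 and 82.1 CPM after MI (log2 fold change -2.04, adjusted p = 2.17e-07, SE 0.19). *Cox6c* of complex IV measured 1272, 1190, 1034 and 974 CPM in shams and 359, 328, 385 and 381 CPM after MI (log2 fold change -1.62, adjusted p = 1.14e-07, SE 0.14), and *Cox7b* had -1.38 (adjusted p = 2.51e-07, SE 0.13). Every MI library lay below every sham for both genes, MI replicate 3 included.

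Genes encoded in mitochondrial DNA fell by a similar measure. Of 13 protein-coding genes 11 fell and 0 rose, with a median of -0.92. *mt-Co1*, the catalytic subunit of complex IV, measured 366500, 330000, 297800 and 272300 CPM in shams and 130200, 113700, 112200 and 116200 CPM after MI (log2 fold change -1.42, adjusted p = 5.08e-06, SE 0.18), and *mt-Nd1* of complex I had -1.19 (adjusted p = 8.92e-05, SE 0.20). Mitochondrial ribosomal proteins, which translate these transcripts, fell in 53 of 77 and rose in 2, at a median of -0.55 (49 and 0 without MI replicate 3). *Mrpl12* fell with a log2 fold change of -0.91 (adjusted p = 1.93e-05, SE 0.13) and *Mrpl39* with -1.02 (adjusted p = 1.88e-05, SE 0.15). Genes of the cytosolic ribosome rarely passed: 2 of 77 fell and 0 rose, at a median of -0.04, and 1 of those that fell was *Rpl3l*, the isoform of striated muscle (log2 fold change -1.86, adjusted p = 0.000377, SE 0.33).

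**Figure D3:**
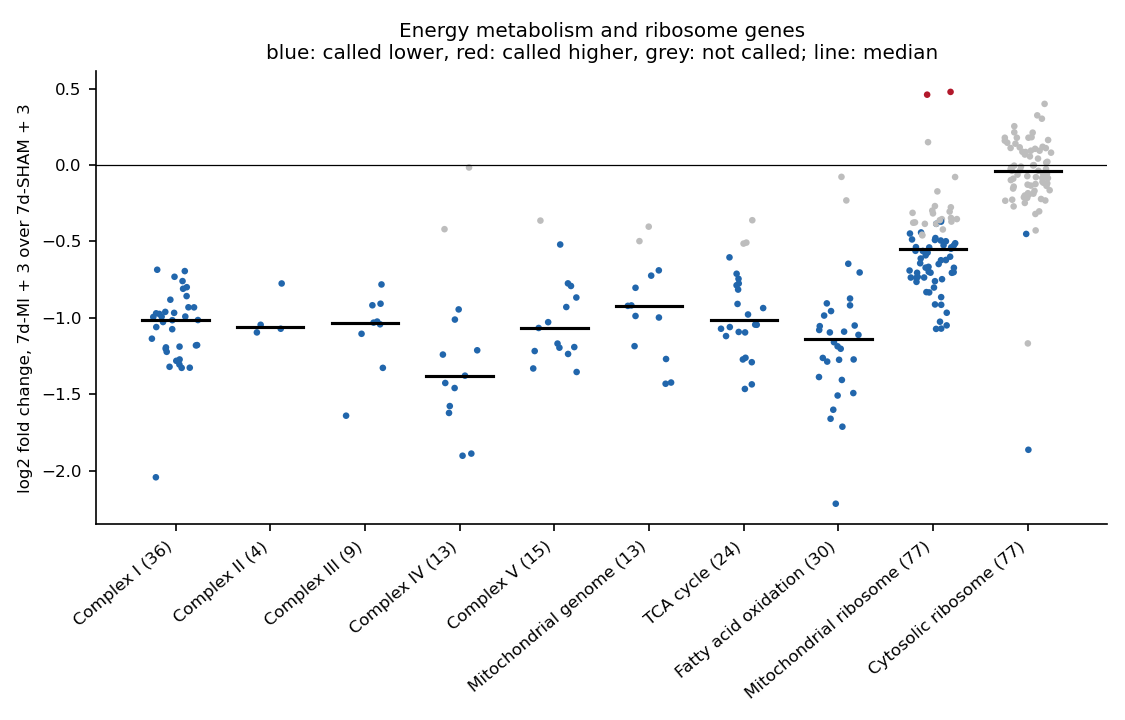
Log2 fold change of 7d-MI + 3 over 7d-SHAM + 3 (y axis) for each measured gene of the 5 respiratory complexes, the mitochondrial genome, the TCA cycle, fatty acid oxidation and the 2 kinds of ribosome (x axis, number of genes in parentheses), with the median as a line. Nearly all genes of the complexes lie below 0 (75 of 78 lower, cytochrome c included), the mitochondrial ribosome lies lower by a median of -0.55, and the cytosolic ribosome is centred near 0.

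Genes of fat oxidation fell from the carnitine shuttle to the transfer of electrons. Of 30 genes of fatty acid uptake, the carnitine shuttle and beta-oxidation 28 fell and 0 rose, at a median of -1.14. *Ech1* (ENSMUSG00000053898, chromosome 7, 28825217 to 28832247), an isomerase of unsaturated fatty acids, measured 234, 223, 228 and 190.2 CPM in shams and 42.5, 43.9, 57.6 and 44.1 CPM after MI (log2 fold change -2.22, adjusted p = 8.53e-08, SE 0.19). *Echs1*, the enoyl hydratase, fell with a log2 fold change of -1.09 (adjusted p = 1.61e-06, SE 0.12) and *Etfa*, which passes electrons from beta-oxidation to the chain, with -1.26 (adjusted p = 4.22e-07, SE 0.13). In the carnitine shuttle *Cpt1b*, the muscle form of the entry enzyme, measured 248, 262, 247 and 264 CPM in shams and 112, 115, 172 and 141 CPM after MI (log2 fold change -0.92, adjusted p = 0.000121, SE 0.16). The liver form *Cpt1a*, high in the newborn heart, measured 72.1, 74.3, 87.02 and 71.7 CPM and 70.3, 70.9, 70.6 and 77.6 CPM and did not pass (log2 fold change -0.08, adjusted p = 0.691, SE 0.12). The translocase *Slc25a20* measured 53.1, 58.7, 60.95 and 58. CPM in shams and 22.9, 26.1, 35.4 and 27.1 CPM after MI (log2 fold change -1.05, adjusted p = 3.08e-05, SE 0.16), and *Cpt2*, which frees the acyl group inside, had -0.70 (adjusted p = 0.00912, SE 0.20). The groups did not overlap for *Cpt1b* and *Slc25a20*, and overlapped for *Cpt1a* and, through MI replicate 3, for *Cpt2*.

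The TCA cycle fell in 21 of 24 genes and rose in 0, and all 24 fell without MI replicate 3. *Idh3b* and *Idh3g*, subunits of isocitrate dehydrogenase, fell with a log2 fold change of -1.44 (adjusted p = 5.38e-07, SE 0.15) and -1.29 (adjusted p = 2.02e-07, SE 0.12), and *Sdhc*, shared with complex II, with -1.07 (adjusted p = 7.34e-07, SE 0.11). *Acat1*, a thiolase of ketone use, fell with a log2 fold change of -1.25 (adjusted p = 2.53e-05, SE 0.18), and *Bdh1*, which interconverts the 2 ketone bodies, rose from a very low level (log2 fold change 3.02, adjusted p = 2.03e-06, SE 0.35). Energy carriers fell as well, in 7 of 11 genes with 1 higher. *Ckmt2*, mitochondrial creatine kinase, fell with a log2 fold change of -1.57 (adjusted p = 6.18e-07, SE 0.16), *Mb*, the oxygen store myoglobin, with -1.600 (adjusted p = 5.87e-06, SE 0.20) and *Slc25a4*, the ADP/ATP carrier of heart, with -1.07 (adjusted p = 6.63e-06, SE 0.14).

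Regulators of mitochondrial metabolism fell in 12 of 21 and rose in 2. *Ppargc1a* (ENSMUSG00000029167, chromosome 5, 51454250 to 51567726), the coactivator PGC-1alpha of mitochondrial biogenesis, measured 196, 168, 144 and 153 CPM in shams and 26.1, 26.8, 63.5 and 27.03 CPM after MI (log2 fold change -2.204, adjusted p = 1.98e-05, SE 0.29). MI replicate 3 stood above the other MI libraries and still below all shams, and without it the value was a log2 fold change of -2.62 (adjusted p = 1.77e-07). *Klf15* and *Klf9*, factors of fasting and glucocorticoid responses, fell with a log2 fold change of -2.13 (adjusted p = 1.31e-05, SE 0.29) and -1.78 (adjusted p = 7.98e-07, SE 0.19). *Foxo1*, a factor of starvation and insulin signaling, rose by a log2 fold change of 1.43 (adjusted p = 0.00100, SE 0.30).

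Glucose genes went in both directions (10 of 31 higher, 9 lower). *Slc2a1*, the glucose transporter GLUT1 of the fetal heart, measured 1.22, 2.04, 1.95 and 2.33 CPM in shams and 13.03, 20.7, 11.01 and 16.2 CPM after MI (log2 fold change 3.01, adjusted p = 6.12e-08, SE 0.25). *Slc16a3*, which exports lactate, rose by a log2 fold change of 3.904 (adjusted p = 4.44e-07, SE 0.38) and *Pgam1*, a glycolytic mutase, by 1.29 (adjusted p = 3.01e-05, SE 0.19). *Pdk4* (ENSMUSG00000019577, chromosome 6, 5483351 to 5496309), the kinase that holds back pyruvate dehydrogenase when fat is burned, went from 439, 666, 556 and 254 CPM to 36.03, 73.7, 68.4 and 105 CPM (log2 fold change -2.76, adjusted p = 5.03e-05, SE 0.38). *Ldhb*, the lactate dehydrogenase of oxidative muscle, and *Mpc2*, of the pyruvate carrier, fell with a log2 fold change of -1.13 (adjusted p = 4.24e-05, SE 0.17) and -0.94 (adjusted p = 1.30e-05, SE 0.13). Lipid genes also parted, with 7 of 23 higher (4 with the name prefix as a correlated block) and 9 lower. *Plin5* and *Plin4*, lipid droplet coats of muscle, fell with a log2 fold change of -1.96 (adjusted p = 1.06e-06, SE 0.22) and -1.495 (adjusted p = 8.02e-05, SE 0.24), and *Scd4*, a desaturase of the heart, with -2.88 (adjusted p = 0.00535, SE 0.68), lowest in MI replicate 1 at 0.891 CPM against 6.66 to 15.7 CPM in the other MI libraries.

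Genes of one-carbon metabolism and amino acid supply, targets of the stress factor Atf4, rose while another target fell. *Mthfd2* and *Mthfd1l*, enzymes of the mitochondrial folate cycle, rose by a log2 fold change of 2.33 (adjusted p = 4.61e-06, SE 0.29) and 2.64 (adjusted p = 3.99e-08, SE 0.21). *Asns* (ENSMUSG00000029752, chromosome 6, 7675169 to 7693254), asparagine synthetase, measured 2.75, 3.53, 3.23 and 2.93 CPM in shams and 12.2, 12.2, 8.38 and 14.2 CPM after MI (log2 fold change 1.92, adjusted p = 4.69e-06, SE 0.24). *Atf3*, a stress factor, went the other way, from 31.4, 32.1, 38.01 and 21.8 to 12.1, 12.5, 7.13 and 11.7 CPM (log2 fold change -1.51, adjusted p = 0.00112, SE 0.31). In the list 9 of 21 measured genes rose and 1 fell. *Fgf21*, a secreted product of the same response, had too few counts to be tested, and *Gdf15* did not pass (log2 fold change 1.305, adjusted p = 0.342, SE 0.99). The promoter windows of *Asns* and *Atf3* are shown because both hold the letters TGATGNAA of the composite C/EBP and ATF element (in capitals, either strand) although the 2 genes moved in opposite directions. They come from RefSeq in GRCm38.p6, both on the minus strand, chr6:7693160-7693459 for *Asns* and chr1:191183284-191183583 for *Atf3*.
Asns: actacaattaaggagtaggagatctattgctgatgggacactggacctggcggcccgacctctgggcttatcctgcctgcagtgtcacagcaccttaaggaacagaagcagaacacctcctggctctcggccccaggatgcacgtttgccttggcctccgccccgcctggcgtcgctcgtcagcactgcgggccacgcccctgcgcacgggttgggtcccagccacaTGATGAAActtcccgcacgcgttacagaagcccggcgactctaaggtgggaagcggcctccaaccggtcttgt
Atf3: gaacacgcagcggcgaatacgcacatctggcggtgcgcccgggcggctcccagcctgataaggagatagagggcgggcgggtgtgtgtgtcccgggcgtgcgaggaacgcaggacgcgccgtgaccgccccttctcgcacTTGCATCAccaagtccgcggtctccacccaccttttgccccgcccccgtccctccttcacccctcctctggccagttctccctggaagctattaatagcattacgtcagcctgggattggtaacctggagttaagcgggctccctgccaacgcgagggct
The letters were found in 7 of 19 genes of the list with a window (36.8%) and in 4.51% of all 27025 genes. The list was drawn up around Atf4 targets, so this share is partly built in. A match describes the letters of the window only.

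Antioxidant genes went in both directions, 9 of 29 higher and 12 lower (10 and 10 without MI replicate 3). *Hmox1*, heme oxygenase 1, measured 3.06, 2.79, 2.66 and 3.42 CPM in shams and 57.2, 53.5, 22.2 and 51.8 CPM after MI (log2 fold change 3.95, adjusted p = 6.22e-07, SE 0.36), lowest in MI replicate 3. *Gpx3*, the secreted glutathione peroxidase, rose by a log2 fold change of 1.22 (adjusted p = 7.39e-05, SE 0.20) and *Srxn1*, which repairs oxidized peroxiredoxins, by 1.08 (adjusted p = 0.000158, SE 0.19). *Sod2* and *Prdx3*, both of the mitochondrial matrix, fell with a log2 fold change of -1.03 (adjusted p = 6.64e-05, SE 0.16) and -0.86 (adjusted p = 0.000105, SE 0.15), and *Gsta4*, which clears lipid aldehydes, with -1.53 (adjusted p = 7.52e-07, SE 0.16). Among chaperones 12 of 31 rose and 4 fell (6 and 2 with the name prefix as a correlated block), with *Hsph1* of the cytosol at a log2 fold change of 1.22 (adjusted p = 0.000124, SE 0.21) and *Hspd1*, HSP60 of the mitochondria, at -0.63 (adjusted p = 0.00144, SE 0.14).

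Cell division genes rose in the wall. Of 34 genes of mitosis and cytokinesis 28 rose and 0 fell, at a median of 1.09, and of 33 genes of DNA replication 19 rose and 0 fell, at 0.74. *Mki67* (ENSMUSG00000031004, chromosome 7, 135689784 to 135716361), which encodes the proliferation antigen Ki-67, measured 78.5, 99.1, 112 and 139 CPM in shams and 369, 406, 498 and 419 CPM after MI (log2 fold change 1.98, adjusted p = 2.22e-05, SE 0.27). *Ect2* (ENSMUSG00000027699, chromosome 3, 27097222 to 27153878), an exchange factor that opens cytokinesis, measured 4.38, 6.62, 6.43 and 7.71 CPM in shams and 23.6, 26.2, 23.5 and 24.5 CPM after MI (log2 fold change 1.96, adjusted p = 9.78e-07, SE 0.21). For both genes every MI library exceeded every sham, by more than 2-fold. *Cenpe*, a kinetochore motor, showed a log2 fold change of 2.26 (adjusted p = 5.39e-06, SE 0.27), *Melk*, a mitotic kinase, 1.599 (adjusted p = 1.79e-05, SE 0.23) and *Top2a*, topoisomerase II, 1.29 (adjusted p = 0.000726, SE 0.26). Which cells divided cannot be read from these libraries. Without MI replicate 3 25 of 34 rose.

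The promoter windows of *Mki67* and *Ect2* are shown because both carry the letters TTTGAA of the cell cycle homology region, an element of genes that peak in G2 and M phase, at 2 places each (capitals). They come from RefSeq in GRCm38.p6, both on the minus strand, chr7:135716330-135716629 and chr3:27153829-27154128.
Mki67: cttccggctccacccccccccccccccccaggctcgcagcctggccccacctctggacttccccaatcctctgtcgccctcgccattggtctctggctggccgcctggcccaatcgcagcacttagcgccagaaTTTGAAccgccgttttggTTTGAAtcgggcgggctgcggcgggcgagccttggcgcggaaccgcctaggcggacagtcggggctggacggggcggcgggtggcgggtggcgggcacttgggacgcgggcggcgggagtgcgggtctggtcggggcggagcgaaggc
Ect2: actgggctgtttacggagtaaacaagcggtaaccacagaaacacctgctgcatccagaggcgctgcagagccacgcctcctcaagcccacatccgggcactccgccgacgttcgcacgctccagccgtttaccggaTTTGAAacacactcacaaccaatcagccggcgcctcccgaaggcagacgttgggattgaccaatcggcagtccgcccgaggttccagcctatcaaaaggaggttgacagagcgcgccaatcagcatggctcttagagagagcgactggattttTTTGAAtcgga
On either strand the letters occurred in windows of 21 of 29 mitosis genes (72.4%) and of 20.2% of all 27025 genes with a window. The list holds genes of the phase in which the element is known, so this share is partly built in.

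Genes that open the cycle rose less evenly. *E2f7*, a repressor that follows S phase, rose by a log2 fold change of 2.11 (adjusted p = 7.24e-07, SE 0.22), *Cdk6*, a G1 kinase, by 1.06 (adjusted p = 4.38e-05, SE 0.16) and *Rbl1*, the pocket protein p107, by 1.06 (adjusted p = 0.000158, SE 0.19), and 8 of 15 genes of the G1 list rose. *Ccnd1*, cyclin D1, overlapped between groups (log2 fold change -0.12, adjusted p = 0.658, SE 0.17). For S phase, *Tyms*, thymidylate synthase, showed a log2 fold change of 1.59 (adjusted p = 1.86e-05, SE 0.23), *Mcm10*, of the replication fork, 1.74 (adjusted p = 3.33e-05, SE 0.26) and *Pole*, of the leading-strand polymerase, 1.15 (adjusted p = 6.11e-05, SE 0.18). Of the cycle inhibitors *Cdkn1c*, the imprinted p57, fell from 42.96, 39.1, 37.5 and 37.6 to 15.8, 12.4, 13.2 and 10.7 CPM (log2 fold change -1.59, adjusted p = 1.08e-07, SE 0.14), and *Cdkn1a*, p21, did not pass, at 11.3, 14.6, 14.4 and 12.1 CPM in shams and 11.1, 15.1, 6.45 and 8.11 CPM after MI (log2 fold change -0.36, adjusted p = 0.233, SE 0.22). Replication-dependent histones, whose transcripts mostly lack a poly(A) tail, rose in 4 of 58 (6.90%) and fell in 1.

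Immediate early genes, the first transcribed after a growth or stress signal, rose in 13 of 26 and fell in 3 (11 and 3 without MI replicate 3). *Egr1*, a zinc finger factor, measured 0.952, 0.929, 0.871 and 0.923 CPM in shams and 12.1, 19.3, 28.6 and 13.1 CPM after MI (log2 fold change 4.31, adjusted p = 8.53e-08, SE 0.36). The 4 shams were nearly equal and the MI libraries ranged more than 2-fold, highest in replicate 3. *Myc* rose by a log2 fold change of 2.42 (adjusted p = 3.08e-08, SE 0.19). *Nr4a3* (ENSMUSG00000028341, chromosome 4, 48045153 to 48086447), an orphan nuclear receptor that is also induced early, went the other way, from 25.5, 23.03, 26.1 and 15.5 to 3.56, 4.18, 5.01 and 2.82 CPM (log2 fold change -2.53, adjusted p = 4.47e-05, SE 0.37), as did the AP-1 member *Jund* (log2 fold change -0.96, adjusted p = 0.000952, SE 0.20). Growth factors rose in 12 of 31 and fell in 4. *Pdgfc* rose by a log2 fold change of 3.54 (adjusted p = 8.75e-07, SE 0.38), *Hgf*, hepatocyte growth factor, by 2.49 (adjusted p = 3.71e-06, SE 0.31) and *Nrg1*, neuregulin, by 2.88 (adjusted p = 2.41e-06, SE 0.34), while *Erbb4*, the neuregulin receptor of cardiomyocytes, fell from 66.3, 52.8, 50.5 and 50.7 to 15.4, 10.8, 34.9 and 13.02 CPM (log2 fold change -1.57, adjusted p = 0.000264, SE 0.28). *Fgf1* fell with a log2 fold change of -1.12 (adjusted p = 0.000521, SE 0.22). *Igf1* rose by a log2 fold change of 1.01 (adjusted p = 0.0294, SE 0.34), a call lost without any 1 of 6 of the 8 libraries (adjusted p from 0.0638 to 0.0856), and *Igf2* did not pass (log2 fold change 0.06, adjusted p = 0.892, SE 0.22).

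Among other signals, Wnt genes rose in 13 of 26 and fell in 1 (11 and 1 without MI replicate 3), with the secreted antagonists *Frzb* at a log2 fold change of 2.87 (adjusted p = 2.79e-07, SE 0.28) and *Sfrp1* at 1.88 (adjusted p = 1.11e-07, SE 0.17). Hippo pathway genes rose in 10 of 20 and fell in 0, and rose in 7 without MI replicate 3 and in 6 with the name prefix as a correlated block. Apoptosis and necroptosis genes rose in 12 of 22 and fell in 2. Of 12 genes of thyroid and glucocorticoid signaling 5 rose and 5 fell. *Dio3*, which inactivates thyroid hormone, had no count in any sham and measured 2.08, 1.55, 0.744 and 1.65 CPM after MI, at least 69.2-fold above the level of 3 counts over the shams, and *Dio2*, which activates it, rose by a log2 fold change of 1.92 (adjusted p = 7.14e-06, SE 0.25). *Tsc22d3*, a target of glucocorticoids, measured 79.3, 76.2, 77.3 and 74.3 CPM in shams and 34.8, 28.6, 32.7 and 22.1 CPM after MI (log2 fold change -1.38, adjusted p = 8.32e-07, SE 0.15), and *Zbtb16*, another, fell with -2.51 (adjusted p = 0.00205, SE 0.53). Genes of adrenergic, natriuretic and angiotensin signaling fell in 7 of 18 and rose in 3.

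Vessel genes moved in both directions. Of 12 vascular endothelial markers 6 fell and 2 rose. *Tek*, the angiopoietin receptor TIE2, measured 75.5, 76.2, 69.99 and 74.9 CPM in shams and 38.5, 42.7, 45.2 and 41.7 CPM after MI (log2 fold change -0.82, adjusted p = 0.000227, SE 0.15), and its relative *Tie1* and ligand *Angpt1* fell with -0.97 (adjusted p = 0.000887, SE 0.20) and -1.55 (adjusted p = 0.000873, SE 0.31). *Tmem100*, a BMP target of endothelium, fell with a log2 fold change of -2.38 (adjusted p = 0.000243, SE 0.39). Of 9 pericyte markers 5 fell and 3 rose. *Rgs5*, a regulator of G proteins, fell from 1341, 1253, 1150 and 1228 to 485, 537, 839 and 538 CPM (log2 fold change -1.05, adjusted p = 0.000138, SE 0.18), *Abcc9*, a subunit of the ATP-sensitive potassium channel, with -1.11 (adjusted p = 0.000187, SE 0.20) and *Vtn*, vitronectin, with -2.43 (adjusted p = 1.63e-05, SE 0.34). Smooth muscle markers rose in 5 of 6, and markers of epicardium and mesothelium in 4 of 11.

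Other large falls among genes of at least 5 CPM were of varied kinds. *Aqp4*, a water channel, measured 68.3, 50.95, 60.8 and 57.8 CPM in shams and 13.03, 4.14, 15.7 and 4.08 CPM after MI (log2 fold change -2.69, adjusted p = 8.98e-05, SE 0.39). *Sult1a1*, a phenol sulfotransferase, went from 22.5, 24.1, 20.4 and 23.2 to 3.27, 3.75, 4.68 and 3.64 CPM (log2 fold change -2.56, adjusted p = 6.66e-08, SE 0.21). *Adh1*, an alcohol and retinol dehydrogenase, fell with a log2 fold change of -2.498 (adjusted p = 7.04e-06, SE 0.33), *Lrrc4b*, a synaptic adhesion protein, with -2.499 (adjusted p = 1.31e-07, SE 0.22) and *Art1*, an ADP-ribosyltransferase of muscle, with -2.42 (adjusted p = 0.000687, SE 0.46). The groups did not overlap for any of the 5, though *Sult1a1* and *Adh1* have overlapping genes at 10% or more of their level, as have *Plod3*, *Ncf1*, *Timp4*, *Mrpl12*, *Plin4*, *Hspd1*, *Ccnd1*, *Jund* and *Nrg1* above.

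Further lists held few called genes or moved both ways. Primary cilium genes rose in 3 and fell in 4 of 30, and clock genes rose in 2 and fell in 6 of 19. Without MI replicate 3 cilium genes rose in 1 and clock genes fell in 8. Proteasome subunits fell in 10 and rose in 2 of 38, and fell in 3 without MI replicate 3 and in 3 with the prefix block. Genes of angiogenesis and hypoxia rose in 8 and fell in 6 of 26, and CDK inhibitors and p53 targets in 4 and 3 of 17. The lists overlap in some genes and account for 845 of the 6910 called genes, and 6065 called genes are in none of them.

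**Figure D4:**
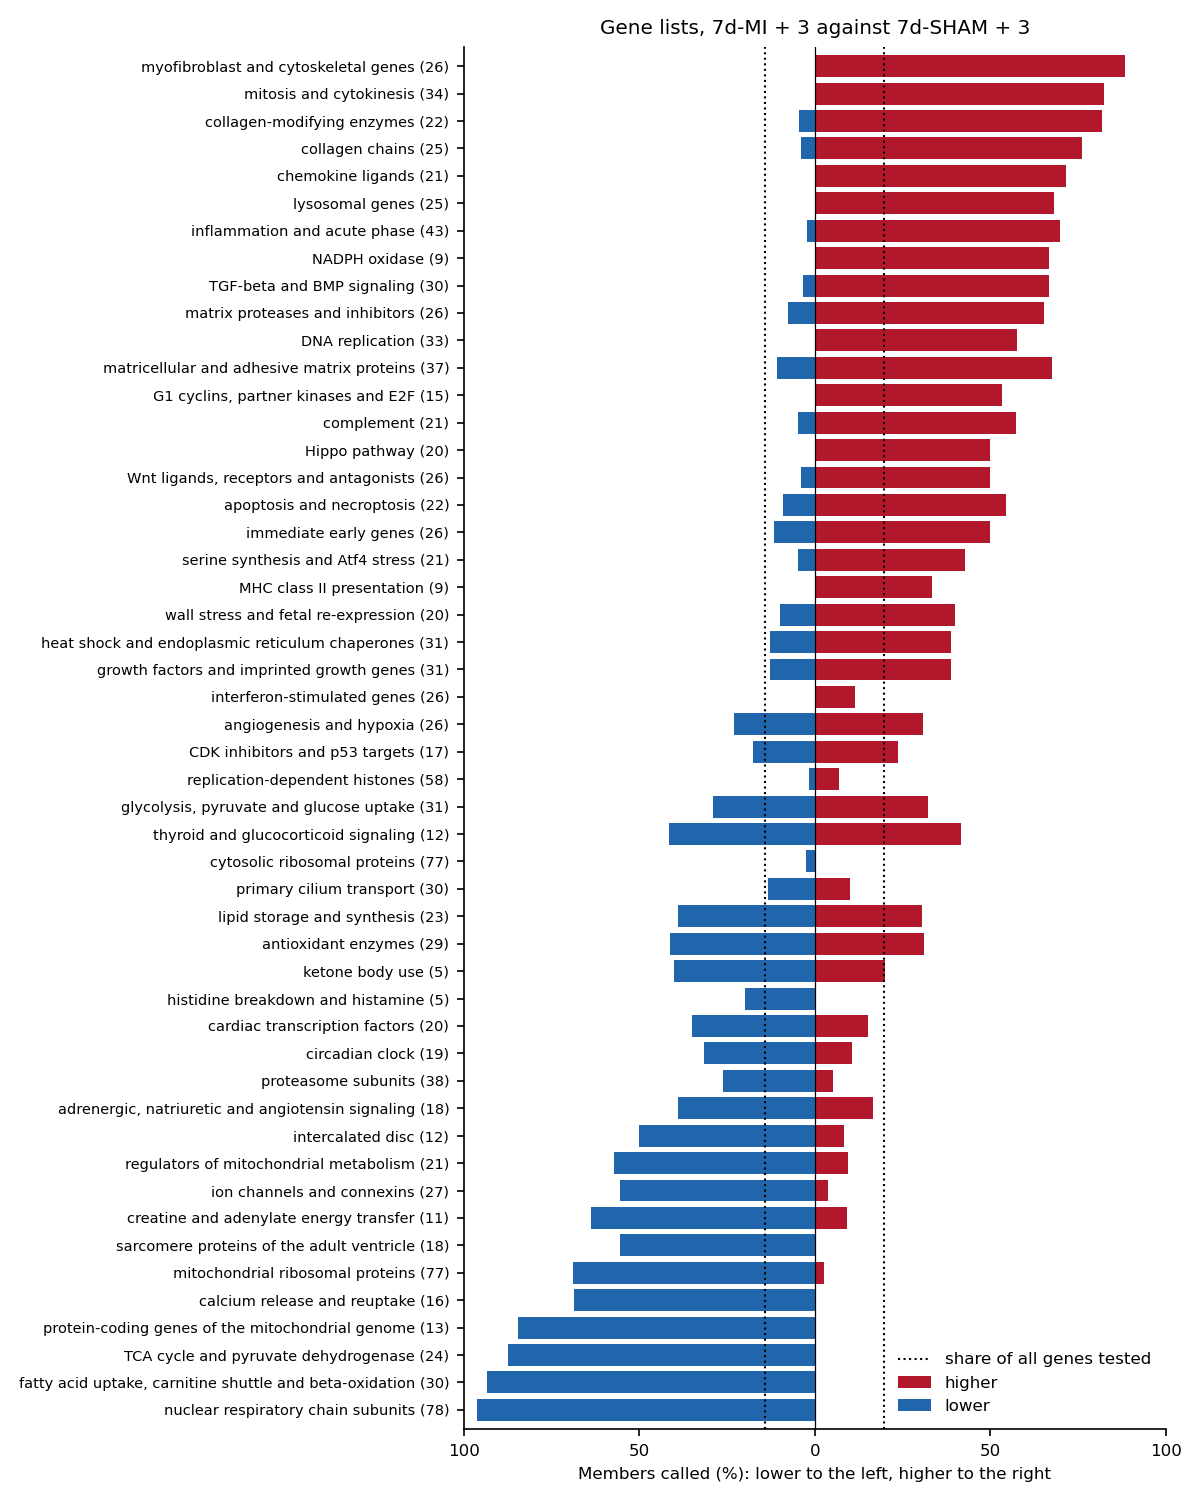
Share of the measured members of each of 50 gene lists called higher (red, to the right) or lower (blue, to the left) in 7d-MI + 3, in percent (x axis), with the number measured in parentheses. Dotted lines mark the shares over all genes tested, 19.8% higher and 14.2% lower. Respiratory chain and fat oxidation genes have the longest bars to the left and myofibroblast and mitosis genes the longest to the right.

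Whether the response at day 7 differed from that at day 1 was tested as the difference of the 2 MI effects in 1 fit of the 16 libraries of the 3-day follow-up. It passed for 2662 genes, 1833 (9.01%) with a higher value at 7 days and 829 (4.07%) with a lower one. Of the 2662, 2311 were also called in the comparison at 7 days, where 34.0% of all genes were called. Both tests use the same day-7 libraries, so this overlap is partly built in and is no independent result. With animals of 1 name prefix treated as correlated, with limma-voom, the age difference passed for 864 genes, 609 higher and 255 lower. The MI effects at day 7 and day 1 share no control samples. The split into higher and lower depends on scaling. With upper-quartile scaling 1019 were higher and 1753 lower, with a median log2 difference over all genes of -0.207 in place of 0.033, and with the size factors of DESeq2 in the same fit 1484 were higher and 1070 lower. The genes named for the age difference kept their direction under both scalings, and *Hal* did not pass under either (adjusted p of 0.0528 and 0.0584). Of the 50 pathway lists mitosis genes held the largest share of age differences, higher at 7 days in 29 of 34 (median 1.09 at day 7 and -0.53 at day 1), and DNA replication in 20 of 33 (0.74 and -0.40). With SDs over 4 libraries, *Mki67* averaged 288 ± 120.3 CPM in 1d-SHAM + 3 and went to 211 ± 61.6 CPM in 1d-MI + 3, a log2 change of -0.45 that did not pass, and differed between ages by 2.43 (adjusted p = 0.000750, SE 0.38). The 1d-SHAM + 3 libraries ranged from 150 to 427 CPM of *Mki67*, from 2.90 to 22.6% of ribosomal RNA and from 38.7 to 59.3% of mitochondrial transcripts. The lowest *Mki67* lay in the library of the highest shares. Sham replicates 1 and 2 of day 1 (427 and 338 CPM) carry 1 name prefix, and replicates 3 and 4 (237 and 150 CPM) carry another. The 1d-SHAM + 3 and 1d-MI + 3 animals share no prefix, so prefix and operation cannot be told apart at day 1 either. The part of this in the age differences was not tested. The differences were a log2 difference of 2.500 (adjusted p = 0.000597, SE 0.37) for *Cenpe*, 2.08 (adjusted p = 0.000292, SE 0.29) for *Ect2*, 2.14 (adjusted p = 0.000385, SE 0.31) for *Melk* and 2.09 (adjusted p = 0.00132, SE 0.36) for *Top2a*.

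Respiratory chain genes were lower at 7 days by the same test in 50 of 78, beta-oxidation genes in 16 of 30 and TCA genes in 15 of 24, and the medians at day 1 were -0.31, -0.33 and -0.25. List counts of age differences, those of mitosis and DNA replication included, were not recounted under the other scalings or the prefix block. *Cox6c* averaged 1047 ± 176 CPM without and 979.6 ± 84.3 CPM with infarction at day 1, and differed with a log2 difference of -1.52 (adjusted p = 0.000176, SE 0.20). *Ppargc1a* differed with a log2 difference of -1.78 (adjusted p = 0.00835, SE 0.40) and *Pdk4*, at 184 ± 56.98 and 202 ± 70.95 CPM at day 1, with -2.89 (adjusted p = 0.00250, SE 0.52). *Kcne1* differed with a log2 difference of -1.44 (adjusted p = 0.000352, SE 0.21). Matrix genes were higher at 7 days: 17 of 26 myofibroblast genes, 16 of 37 matricellular genes and 10 of 25 collagen chains. *Col12a1* rose at both ages (log2 2.301 at day 1) and more at 7 days, by 3.62 (adjusted p = 0.000637, SE 0.51). *Tnc* differed by a log2 difference of 2.76 (adjusted p = 0.000408, SE 0.38), *Col1a1* by 1.97 (adjusted p = 0.000327, SE 0.28), *Vim* by 1.46 (adjusted p = 0.000336, SE 0.21) and *Actb* by 1.78 (adjusted p = 0.000249, SE 0.24).

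The 6 genes of largest positive difference among those of at least 5 CPM were *Hal* at a log2 difference of 4.87 (adjusted p = 0.0463, SE 1.49), *Adam8* at 4.204 (adjusted p = 0.00937, SE 0.94), *Cemip* at 3.703 (adjusted p = 0.00439, SE 0.74), *Col12a1*, *Egr1* at 3.53 (adjusted p = 0.000219, SE 0.46) and *Slc37a2*, a sugar-phosphate transporter of macrophages, at 3.16 (adjusted p = 0.0135, SE 0.78). The 6 of largest negative difference were *Nr4a3* at a log2 difference of -3.29 (adjusted p = 0.000869, SE 0.52), *Zbtb16* at -2.905 (adjusted p = 0.0185, SE 0.73), *Pdk4*, *Atcayos*, an antisense RNA whose reads cannot be told apart from those of the overlapping kinase gene *Nmrk2*, at -2.26 (adjusted p = 0.000106, SE 0.27), *Adh1* at -2.25 (adjusted p = 0.00297, SE 0.45) and *Art1* at -2.12 (adjusted p = 0.0410, SE 0.64). With limma-voom *Hal*, *Adam8* and *Slc37a2* did not pass (adjusted p from 0.0909 to 0.170), nor did *Cemip* with the prefix block (0.0959). The difference of *Hal* did not pass without any 1 of 12 of the 16 libraries, nor that of *Art1* without any 1 of 13. For other genes the difference did not pass. *Nppa* rose by 4.01 at day 1 and 3.505 at day 7, a difference of a log2 difference of -0.50 (adjusted p = 0.722, SE 0.73), and *Xirp2* by 2.44 and 3.36, a difference of 0.92 (adjusted p = 0.138, SE 0.40). For *Spp1* the values were 8.14 and 11.05, with a difference of a log2 difference of 2.905 (adjusted p = 0.269, SE 1.603). *Myh7* fell at day 1, from 741 ± 248 to 284 ± 88.9 CPM, and did not pass at day 7, a difference of a log2 difference of 1.69 (adjusted p = 0.00312, SE 0.34).

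**Figure D5:**
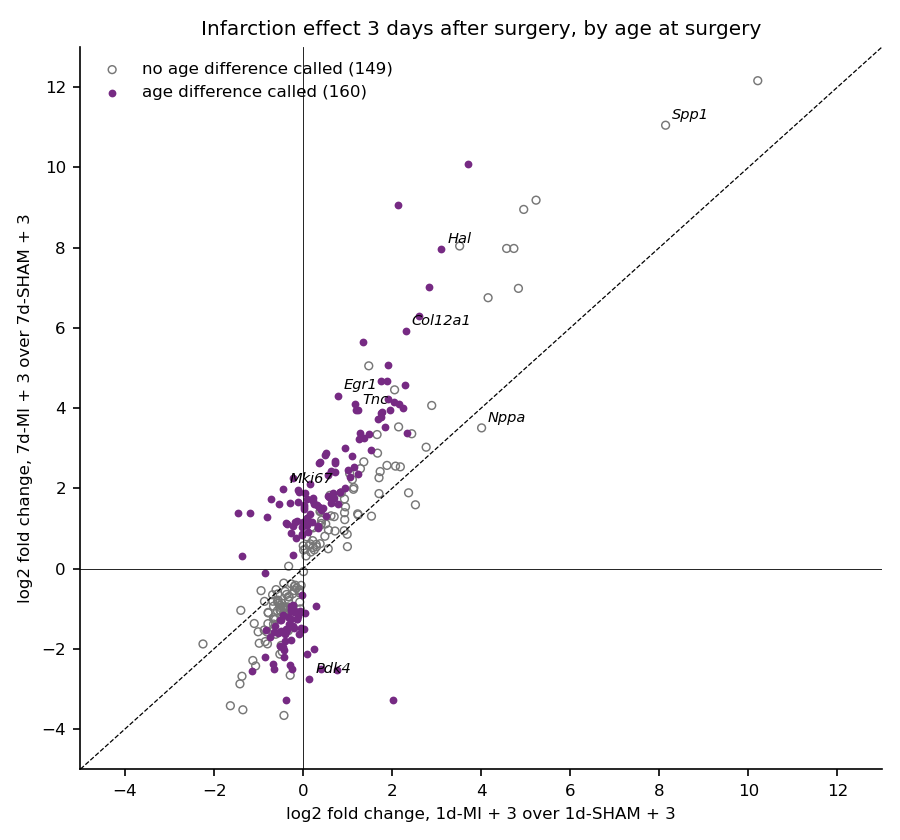
Log2 fold change of MI over sham at day 7 (y axis) against that at day 1 (x axis), both 3 days after surgery, for the 309 genes named by the rule, with the line of equal effects dashed. The 160 genes with a called age difference (filled) include *Mki67* and *Pdk4*, which lie near 0 on the x axis, and *Nppa* (open) lies close to the line.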

How the data were processed

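Total RNA of the remote left ventricular wall, 1 mouse per library, was sequenced with a stranded total RNA kit (TruSeq) on a NextSeq550. The authors deposited 1 table per library with 45318 gene entries, of which 645 carry no symbol, and each table holds raw read counts besides CPM, RPKM and log2 columns that were not used. The submitters' processing notes name TopHat2 2.0.11, Bowtie2 2.2.2, Cufflinks 2.2.1 and GRCm38. Which program counted reads, whether it used strand, and which gene annotation it read were not given in the sources used here. Gene coordinates are those in the tables.

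Counts were joined by gene identifier and groups were taken from the labels. The 16 libraries of the 3-day follow-up entered 1 edgeR fit (version 4.0.16, R 4.3.3) with a mean for each of 4 groups, TMM factors, filterByExpr (minimum count 10, minimum total 15) and the robust quasi-likelihood test on 12 residual degrees of freedom (biological coefficient of variation 0.331). Genes were called at an adjusted p of 0.05. On simulated counts of 19563 genes for the comparison at day 7, the test called 56 of 91 genes made to change 2-fold (log2 of 1), 94 of 109 made to change by a log2 of 2, and 12 genes left unchanged. The simulation held no effect of the name prefix and changed far fewer genes than were called in the data. It therefore cannot speak to calls that come from the prefix.

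The 50 pathway and 23 marker lists and the rules were chosen with earlier results of these data known, and 2 list entries matched no gene. The rule named 309 genes: 12 higher and 12 lower genes of largest change among called genes with groups that do not overlap and a mean of at least 5 CPM, up to 3 called members of smallest p per list and direction or else the member of smallest p, 35 fixed genes, and 6 higher and 6 lower genes for the age difference. Of these, values are given for 186, picked after their values were seen, and 1 result is not reported here. Promoter windows came from RefSeq (GRCm38.p6).

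Alternatives were scaling with DESeq2's size factors (RLE), by the upper quartile or by TMM with the 20 most abundant genes left out, no filter, a mean count of at least 50, protein-coding genes only, a log2 fold change of at least 1, DESeq2 1.42.0, limma-voom (limma 3.58.1) with and without the name prefix as a correlated block (correlation 0.202), the 2 groups alone, and each library left out. Python 3.11.15 with numpy 2.4.6, pandas 2.3.3, scipy 1.17.1 and matplotlib 3.10.9 was used for the other steps. The 21-day libraries, made with another kit, were not analysed here.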

Additional observations from a re-analysis of the deposited data

Results flagged for a closer look

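In groups of 4 a library is listed here where its distance to the nearest of the others exceeded Dixon's critical share of the range of the group. This held for 46 of 418 groups of values tested, where chance gives about 1 in 20, and MI replicate 3 was the library in 18 of the MI cases, 15 times as the highest and 3 times as the lowest.

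In MI replicate 3 the high values were, in CPM, 66030 for the summed ventricular cardiomyocyte markers, 1648 for *Ryr2*, 839 for *Rgs5*, 276 for *Ckmt2*, 174 for *Fhl2*, 162 for *Acat1*, 79.4 for *Ccnd1*, 63.5 for *Ppargc1a*, 57.6 for *Ech1*, 38.8 for *Mpc2*, 35.8 for *Ltbp1*, 19.4 for *Steap4* and 5.19 for *Plin5*. Its summed B cell markers were at 10.8 CPM and its lung epithelium markers at 10.5 CPM, and its low values were 522 CPM for *Vim*, 22.2 CPM for *Hmox1* and 7.13 CPM for *Atf3*. MI replicate 1 was high in *Lmod2* (288 CPM) and low in *Bgn* (233 CPM) and in the summed brown adipocyte markers (30.3 CPM). MI replicate 4 was high in *Myh7* (412 CPM) and *Cpt1a* (77.6 CPM). MI replicate 2 held hepatocyte transcripts at a sum of 37.5 CPM, against 0.371 to 0.477 CPM in the other MI libraries.

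Among shams, replicate 1 was high in *Abcc9* (488 CPM), *Erbb4* (66.3 CPM) and *H2-Ab1* (4.35 CPM) and low in *Hspd1* (174 CPM), *Clu* (21.5 CPM), *Kcna5* (13.9 CPM), *Mthfd1l* (1.90 CPM) and the summed skeletal muscle markers (2.51 CPM). Sham replicate 2 was high in *Spp1* (0.867 CPM), *Gpnmb* (0.309 CPM) and *Hal* (0.248 CPM). Sham replicate 3 was high in *Fgf1* (110.4 CPM), *Cpt1a* (87.0 CPM), *Frzb* (2.56 CPM), *Nrg1* (1.69 CPM) and the summed markers of epicardium and mesothelium (52.8 CPM). Sham replicate 4 was high in *Bgn* (48.2 CPM), *Hsph1* (11.5 CPM), *Rac2* (1.36 CPM) and *Saa3* (0.109 CPM) and low in *Dcn* (1008 CPM) and *Dsc2* (79.8 CPM).

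The MI effect differed between day 7 and day 1 for 2662 genes by edgeR's test of the difference. Of the genes given here the signed difference, day 7 minus day 1 on the log2 scale, was positive for *Hal* (4.87), *Adam8* (4.20), *Cemip* (3.70), *Col12a1* (3.62), *Egr1* (3.53), *Slc37a2* (3.16), *Tnc* (2.76), *Cenpe* (2.5), *Mki67* (2.43), *Melk* (2.14), *Top2a* (2.09), *Ect2* (2.08), *Col1a1* (1.97), *Actb* (1.78), *Myh7* (1.69) and *Vim* (1.46). For *Myh7* the change itself was at day 1, where it fell. The difference was negative for *Nr4a3* (-3.29), *Zbtb16* (-2.90), *Pdk4* (-2.89), *Atcayos* (-2.26), *Adh1* (-2.25), *Art1* (-2.12), *Ppargc1a* (-1.78), *Cox6c* (-1.52) and *Kcne1* (-1.44).

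Interferon-inducible GTPases, chosen after their values were seen, stood highest in sham replicate 1, and sham replicate 3 stood above replicates 2 and 4. *Iigp1* measured 3366 CPM there and 13.5, 179 and 20.9 CPM in sham replicates 2, 3 and 4. *Igtp* measured 282 CPM against 2.10, 30.1 and 2.44 CPM, *Gbp6* 60.1 CPM against 0.681, 6.53 and 0.841 CPM, and *Gbp10* 29.9 CPM against 1.24, 3.30 and 0.923 CPM.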

How the results depend on the processing

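No paired analysis was possible because replicate numbers only name the libraries in accession order, and the 2 groups share no animal or name prefix. The count of 6910 changed genes moved by over 1.5 times under a pair of alternatives, to 4492 with the name prefix as a correlated block and to 3356 where a log2 fold change of at least 1 was also asked. Under the other settings it lay between 6302 and 7776, and between 5656 and 6326 with 1 library left out. The 2662 age differences became 864 with the name prefix block and 1826 to 2810 with 1 library left out. Of the 186 genes given here 173 kept direction and side of the threshold under every alternative, as did 22 of the 28 tested for age. Counts over lists in the comparison at day 7 held less well: of 146, 31 moved by over 1.5 times with the block, 10 with upper-quartile scaling and 2 with RLE. The list counts of age differences were not recounted under any alternative. Reversed signs came only from genes near 0 that did not pass. *Igf2* was at -0.00361 with the 2 groups alone, -0.00306 with limma-voom, -0.0215 with the block and -0.032 with upper-quartile scaling, and ranged from -0.201 (without MI replicate 3) to 0.202 with 1 library left out. *Cpt1a* ranged from -0.101 to 0.00317 (without sham replicate 3), and its age difference from -0.162 to 0.0612 (without 1d-MI + 3 replicate 3) and was 0.00218 without sham replicate 3. *Myh6* passed without MI replicate 3 (-0.77), *Cdkn1a* without MI replicate 2 (-0.61), *Ankrd1* with the 2 groups alone (0.43) and *Nppb* with no filter (0.56). *Hal*, *Adam8* and *Slc37a2* lost the age difference with limma-voom. The causes were not tested. Prefix and operation cannot be told apart at either age, and genes at or near 0 in the shams have folds that depend on the prior count.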

Other observations

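Interferon-inducible GTPases, which attack the vacuoles of intracellular pathogens, were highest in sham replicate 1 and were also raised in sham replicate 3. *Gbp2* measured 37.9 CPM in sham replicate 1 and 37.7 CPM in replicate 3, against 9.38 and 7.84 CPM in replicates 2 and 4. Of 11 measured, 4 were called lower in 7d-MI + 3 by edgeR's quasi-likelihood test: *Iigp1* (log2 fold change -6.11, adjusted p = 0.0266), *Igtp* (-4.64, adjusted p = 0.0262), *Gbp10* (-4.30, adjusted p = 0.0170) and *Irgm2* (-3.36, adjusted p = 0.0397). The MI libraries held 4.17 to 25.4 CPM of *Iigp1*. Without sham replicate 1 none of the 11 passed, with *Iigp1* at -2.45 (adjusted p = 0.209), *Igtp* at -1.85 (adjusted p = 0.222) and *Gbp10* at -2.02 (adjusted p = 0.0653). The summed interferon-stimulated genes were 957, 142, 433 and 146 CPM in sham replicates 1 to 4. The genes were chosen after their values were seen.

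Markers of other cell types passed in part. Valve and cartilage-like markers rose in 4 and fell in 1 of 11, Schwann cell and neuron markers rose in 1 and fell in 3 of 8, and white adipocyte markers fell in 2 of 5. T cell and thymic markers passed in 2 of 9, both lower (*Rag1* and *Dntt*), and erythroid markers rose in 3 of 9 (0 with the name prefix as a correlated block). Of 5 hepatocyte, 2 lung and 3 mast cell markers measured none passed.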
